A study of Mus musculus with 20 samples.

Results

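The 32 genes described here are genes of the red blood cell lineage, listed by symbol, and their transcripts were measured in the bone marrow of mice carrying insertional mutagenesis (IM)-induced T-cell acute lymphoblastic leukemia (T-ALL). Of these genes, 31 matched a row of the deposited table of 39017 genes, and 1 of the listed symbols had no identifier in the tables used here and was not analysed here. Averaged over all libraries, 17 of the 31 genes reached 1 FPKM (fragments per kilobase of exon, scaled to the library total) and the other 14 did not. The erythroid score of a library averaged log2(FPKM + 1) across the 31 genes.

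Red blood cells arise in the marrow from progenitors that depend on erythropoietin and its receptor. The factors GATA1 and KLF1 switch on the globin genes, the enzymes of haem synthesis and the proteins of the red cell membrane and its skeleton, and a late program then clears the mitochondria and the nucleus. Normal marrow holds erythroid cells of every stage, and several of these genes are also used outside the lineage, since haem is needed by every cell.

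The 20 libraries came from 10 leukemias, with 2 libraries per leukemia. The leukemias were induced with the retrovirus MOL4070LTR in C57Bl/6 x 129Sv/Jae F1 mice. Leukemia cells were passed into irradiated wild-type F1 recipients, whose marrow keeps cells of the host, and whole marrow was sequenced, so that fewer erythroid cells and less RNA per erythroid cell cannot be told apart. The labels name no genotype for a library, and no comparison of genotypes was made.

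In each leukemia, 1 of the columns carried the letters VEH and 1 the letters DEX. Neither the labels nor the text of the study explains these letters, and no treatment is inferred from them. For 3 of the DEX columns (2M, 4638 and 73A) the last part of the column name differed from the label, and these were assigned by leukemia alone. Nothing in the sources says whether the libraries of a leukemia came from separate recipients. The p-values between leukemias are therefore set against the spread between the libraries of a leukemia, which may be technical. Those for DEX against VEH columns are set against how that difference varies over the leukemias, and the difference within a leukemia may itself be technical. Library totals ranged from 8226528 counts (JW14 DEX) to 201222288 counts (73M VEH). Counts from ribosomal RNA genes exceeded 1 CPM (counts per 1000000 of the library) in 5 libraries, namely 5C VEH and 20M, 73M, JW14 and JW81 DEX, against at most 0.0656 in the other 15. A count of 0 allows up to 3 counts, which for 1 kilobase of exon is 0.0149 FPKM in the deepest library and 0.365 FPKM in the shallowest, for counting error only.

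To show the sequence in which the lineage's factors are known to find their targets, the promoters of 5 of these genes are printed here from RefSeq on build GRCm38.p6, as the 250 bases before the start of the gene, 5′ to 3′ on the gene's strand. Capitals mark GATA words, the site bound by GATA factors (AGATAA, or the same word with T first, with G last or with both), and CACC boxes, the site bound by KLF1 and related factors (CCNCACCC), on either strand. *Hba-a1*, the gene of an adult alpha-globin chain, has its promoter at chr11:32283422-32283671 (+). *Hbb-bs*, the gene of an adult beta-globin chain, has its promoter at chr7:103827929-103828178 (-). *Alas2*, the gene of the first enzyme of erythroid haem synthesis, has its promoter at chrX:150547167-150547416 (+). The promoter of *Klf1* lies at chr8:84901732-84901981 (+), and that of *Epor*, the erythropoietin receptor, at chr9:21963577-21963826 (-).
Hba-a1: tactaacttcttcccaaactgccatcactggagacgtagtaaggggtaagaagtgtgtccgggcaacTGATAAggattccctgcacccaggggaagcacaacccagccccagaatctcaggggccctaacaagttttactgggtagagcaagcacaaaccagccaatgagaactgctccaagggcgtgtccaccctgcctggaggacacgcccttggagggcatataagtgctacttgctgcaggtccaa
Hbb-bs: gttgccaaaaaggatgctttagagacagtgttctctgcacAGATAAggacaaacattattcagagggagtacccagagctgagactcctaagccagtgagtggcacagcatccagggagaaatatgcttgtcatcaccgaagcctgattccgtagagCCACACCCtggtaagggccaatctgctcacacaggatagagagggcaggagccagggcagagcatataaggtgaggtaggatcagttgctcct
Alas2: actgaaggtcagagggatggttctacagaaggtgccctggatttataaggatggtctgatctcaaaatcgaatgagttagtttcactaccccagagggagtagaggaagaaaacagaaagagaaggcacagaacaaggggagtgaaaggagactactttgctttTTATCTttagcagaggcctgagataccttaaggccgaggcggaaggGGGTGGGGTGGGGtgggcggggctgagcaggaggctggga
Klf1: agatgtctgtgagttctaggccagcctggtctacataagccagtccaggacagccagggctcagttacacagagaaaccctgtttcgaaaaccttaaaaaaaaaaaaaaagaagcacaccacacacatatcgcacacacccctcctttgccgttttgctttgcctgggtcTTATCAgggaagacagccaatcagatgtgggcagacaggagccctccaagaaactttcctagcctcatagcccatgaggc
Epor: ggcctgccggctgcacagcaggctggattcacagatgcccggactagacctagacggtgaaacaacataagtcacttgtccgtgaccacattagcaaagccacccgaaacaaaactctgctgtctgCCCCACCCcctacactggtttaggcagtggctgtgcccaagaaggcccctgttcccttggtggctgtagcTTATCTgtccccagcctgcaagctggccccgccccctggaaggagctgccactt

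A GATA word was present in the window from 250 bases before to 50 bases after the start in 15 of the 23 erythroid genes with a promoter in the RefSeq table (65.2%), and in 29.8% of all 32851 promoters of that length. The 8 promoters without one included those of *Gata1*, *Aqp1*, *Hbb-bt* and *Urod*. The CACC box was found in 26.1% of the erythroid promoters and in 16.6% of all promoters. For TGAGTCA, a core bound by NFE2 and AP-1 factors, the shares were 13.0% and 5.2%. TATAAA was found in 26.1% of the erythroid promoters against 13.6% of all, and CCAAT in 47.8% against 37.4%. Both strands were searched and a promoter was counted once for each motif. The letters printed are a match to the words and not a measured binding site.

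The erythroid transcripts were highest in both libraries of 4638 and in the VEH library of 73M. The erythroid score was 2.77 in 4638 VEH and 3.31 in 4638 DEX. In 73M it was 3.15 in the VEH library and 1.55 in the DEX library, and in 73A 1.88 and 1.31. The other 7 leukemias lay between 0.77 (8633 VEH) and 1.25 (JW81 DEX). The mean over the 10 leukemias was 1.41 ± 0.73 (SD, n = 10).

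In order of the mean of their libraries, the leukemias ran 4638 (3.04), 73M (2.35), 73A (1.60), 2M (1.16), JW81 (1.15), 78A (1.11), JW14 (1.04), 5C (0.93), 20M (0.93) and 8633 (0.82). The ranges of the libraries overlapped between the neighbours 4638 and 73M, 73M and 73A, 2M and JW81, JW81 and 78A, and 5C and 20M, and did not overlap between 73A and 2M, 78A and JW14, JW14 and 5C, and 20M and 8633. Thus neither 4638 and 73M nor 73M and 73A could be ordered beyond their spread, and 73M DEX lay below 73A VEH. 4638, 73M and 73A led in the same order when the score was taken from TPM, from the median over the genes, with a pseudocount of 0.1, without the 4 globin genes, without *Urod*, *Fech*, *Slc25a38* and *Bnip3l*, or with the erythroid counts left out of the library total. Together the 31 genes took between 0.0241% (8633 VEH) and 0.137% (4638 DEX) of a library's counts.

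**Figure D1:**
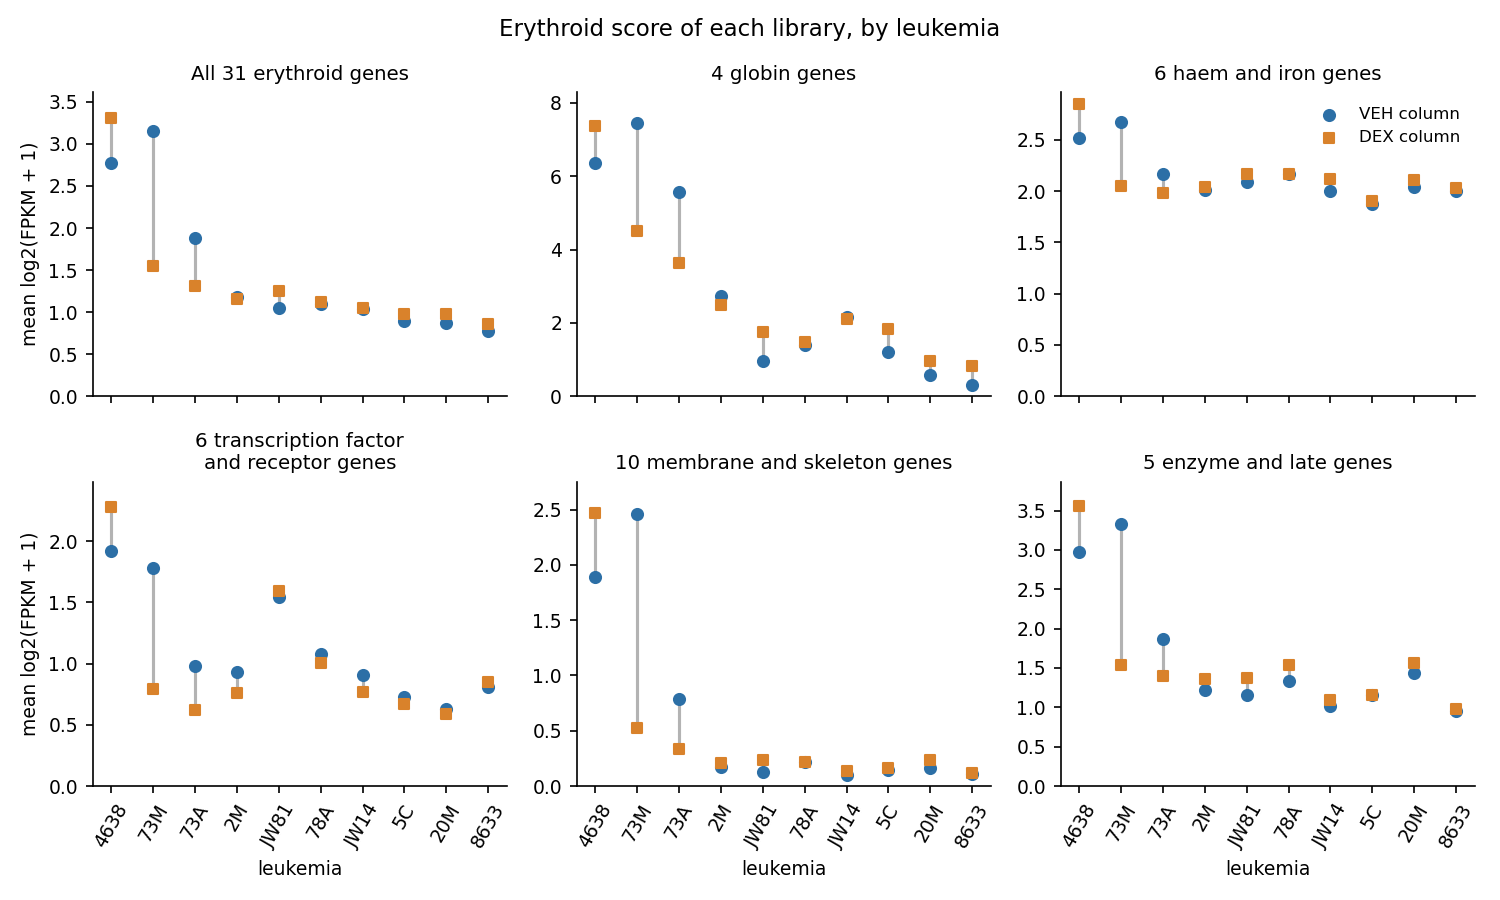
Erythroid score (mean log2(FPKM + 1)) of the VEH (circle) and DEX (square) library of each of 10 leukemias, for all 31 genes and for each role group, with a grey line joining the libraries of a leukemia. The highest scores over all 31 genes are 3.31 in 4638 DEX and 3.15 in 73M VEH, while the haem and iron genes lie between 1.87 and 2.85 in every library.

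For 22 of the 31 genes, 4638 and 73M were the leukemias with the highest and second highest mean level. Counting only genes that averaged 1 FPKM or more, 9 of the 17 erythroid genes had these leukemias on top, and 2.54% of all 11560 genes did. Several of the 9, such as *Slc4a1*, *Aqp1* and *Car1*, reached that average only through these leukemias, so that the filter helped to fix the count. The place of 73M rested on its VEH library. Without 73M VEH, an alternative chosen after seeing the data, the counts were 3 of 31 and 0 of 17 (2.48% of all genes), and without 73M DEX or either library of 4638 they were 22 of 31 and 9 of 17 (2.4% to 4.71% of all genes). The highest mean was in 4638 for 21 of the 31 genes and in 73M for 4, which became 25 and 0 without 73M VEH, 8 and 18 without 73M DEX and 13 and 11 without 4638 DEX. Of the 31, 16 stayed under a mean of 1 FPKM in each of the 7 leukemias other than 4638, 73M and 73A. The 9 genes with another leukemia on top or second were *Urod*, *Fech*, *Slc25a37*, *Slc25a38*, *Nfe2*, *Tal2*, *Hemgn*, *Epor* and *Bnip3l*. By edgeR's quasi-likelihood test of all leukemia terms, with Benjamini-Hochberg adjustment over the 11560 genes, 17 of 17 erythroid genes differed between leukemias at an adjusted p under 0.05, as did 87.5% of all genes tested. The same limit holds for this count, which says little about the list.

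**Figure D2:**
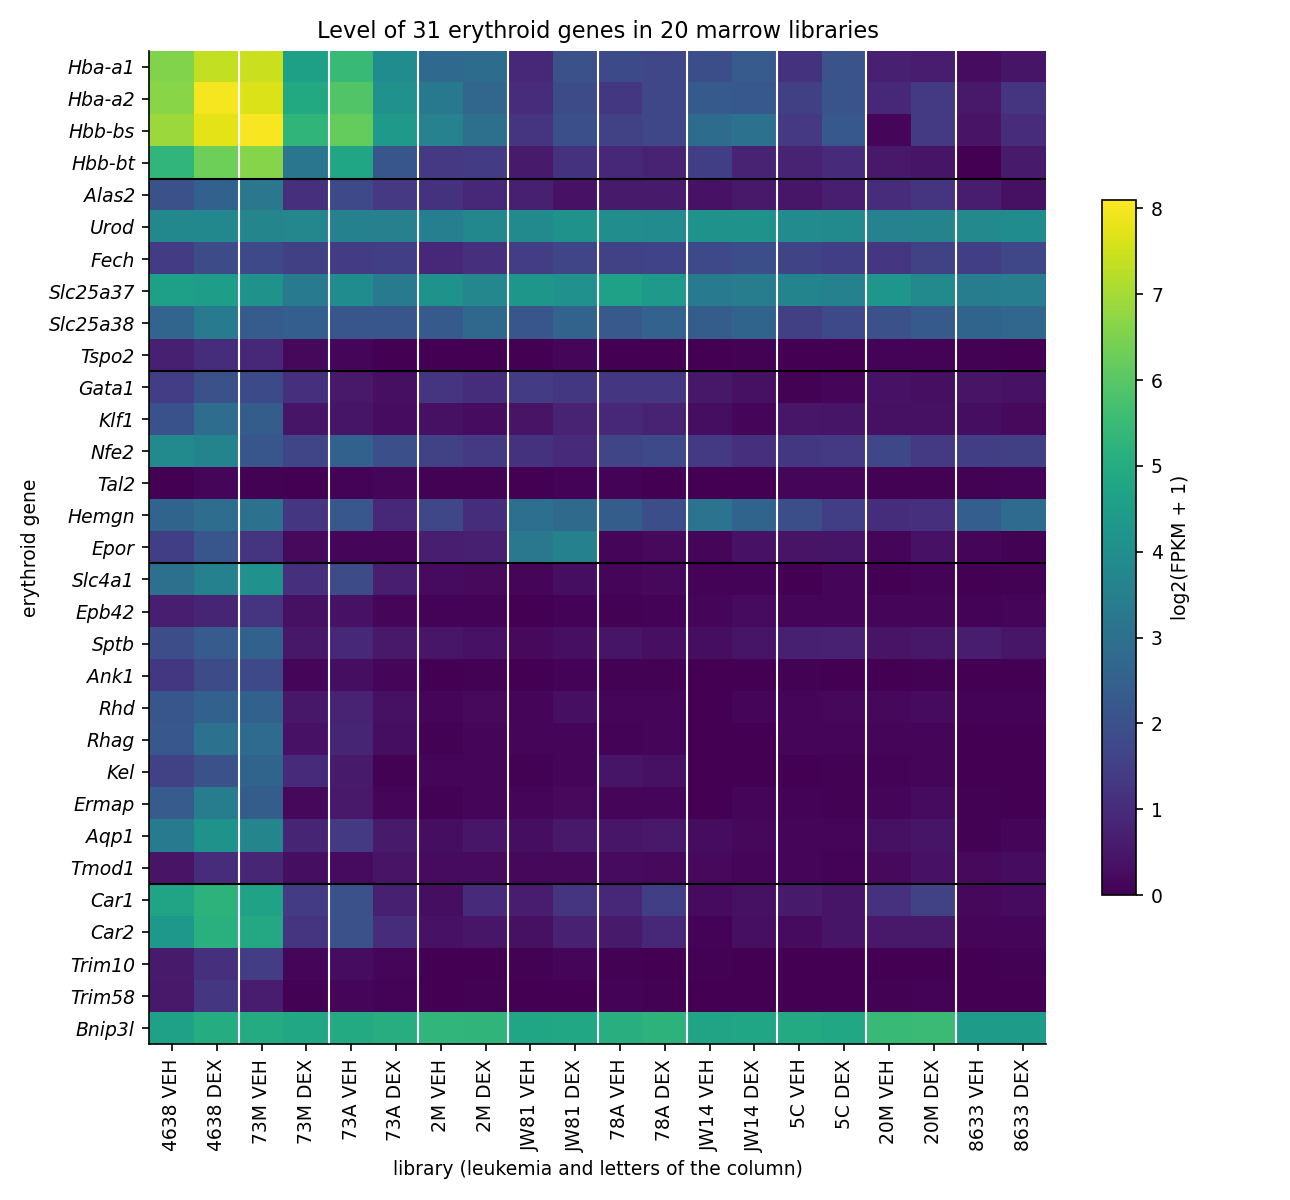
Level of each of the 31 genes (rows, in role groups parted by black lines) in each of the 20 libraries (columns, in the order of the score), as log2(FPKM + 1) from 0 (dark) to 8.1 (yellow). The globin rows reach 257 FPKM in 73M VEH, and *Urod*, *Slc25a37* and *Bnip3l* stay above 8.9 FPKM in all 20 libraries.

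The globin genes had the widest range of the 5 role groups. *Hba-a1* and *Hba-a2* encode the adult alpha chain, and *Hbb-bs* and *Hbb-bt* the adult beta chain of haemoglobin. *Hbb-bs* was at 0.0988 FPKM in the lowest library (20M VEH), at a median of 4.95 FPKM over the 20 libraries and at 257 FPKM in the highest (73M VEH). It stood at 117.1 and 216.3 FPKM in 4638 VEH and DEX, at 257 and 38.4 FPKM in 73M VEH and DEX, and at 71.5 and 19.3 FPKM in 73A VEH and DEX. All 6 of these values were above the highest of the other 14 libraries, which was 11.1 FPKM in 2M VEH. Between leukemias *Hbb-bs* differed with an adjusted p of 7.58e-06 and *Hba-a1* with an adjusted p of 2.9e-06 (edgeR).

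*Hba-a1* ran from 0.194 FPKM (8633 VEH) through a median of 3.10 FPKM to 172 FPKM (73M VEH), and *Hba-a2* from 0.471 FPKM through 3.49 FPKM to 255 FPKM (4638 DEX). *Hbb-bt* was listed at 0 in 8633 VEH, had a median of 1.12 FPKM and reached 97.3 FPKM in 73M VEH. All 4 globin genes thus had their highest library in 4638 or 73M and their lowest leukemia in 8633. The copies are alike in sequence: 63.3% of the 100-base windows of *Hba-a1* transcripts were also found in *Hba-a2*, and 79.5% of those of *Hba-a2* in *Hba-a1*. For *Hbb-bs* and *Hbb-bt* the shares were 49.7% and 54.8%. How the reads were divided within each pair is therefore uncertain, and the sums of a pair are firmer than its members.

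Summed over the 4 genes, the globin level was 732 FPKM in 73M VEH, 715 FPKM in 4638 DEX and 1.02 FPKM in 8633 VEH. As a share of the library this was 543 CPM in 73M VEH (95% Wilson interval 539 to 546), 526 in 4638 DEX (514 to 537) and 0.741 in 8633 VEH (0.490 to 1.12), the intervals covering counting error only. The summed alpha level divided by the summed beta level was between 1.04 and 1.42 in the 6 libraries of 4638, 73M and 73A. Alpha and beta transcripts were thus present at similar levels where globin was high. This was not particular to these libraries, since the ratio was 1.41 and 1.43 in 5C VEH and DEX. Its extremes elsewhere were 0.837 in JW14 VEH and 2.64 in 20M VEH, the latter on 59 globin counts. Of the embryonic globin genes, *Hbb-bh1* had no count in any library, *Hbb-y* was at 0 in 18 of 20 libraries and *Hba-x* at 0 in 16 of 20, with no library above 0.0747 FPKM.

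The haem and iron genes divided into a pair that was highest, like the globins, in 4638 and 73M VEH and 4 of narrower range. The pair did not follow the globins in every library: *Alas2* in 73M DEX (1.11 FPKM) lay below 20M DEX (1.36 FPKM) and 2M VEH (1.30 FPKM). *Alas2* ran from 0.295 FPKM (8633 DEX) through a median of 0.759 FPKM to 8.33 FPKM (73M VEH), and was at 3.03 and 4.70 FPKM in 4638 VEH and DEX. *Tspo2*, which encodes an erythroid protein of the translocator protein family, was below 0.14 FPKM in 17 of 20 libraries and at 0.634, 1.08 and 0.897 FPKM in 4638 VEH, 4638 DEX and 73M VEH. *Alas2* did not drop to 0 in any library, whereas *Tspo2* was at 0 in 5.

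*Urod*, an enzyme of haem synthesis that all cells use, lay between 10.3 and 17.0 FPKM in the 20 libraries. *Fech*, which inserts iron into the haem ring, lay between 0.907 FPKM (2M VEH) and 2.83 FPKM (JW14 DEX), and both libraries of 2M were the lowest of all. *Slc25a37*, mitoferrin 1, which brings iron into mitochondria, lay between 8.92 FPKM (73M DEX) and 23.8 FPKM (78A VEH). *Slc25a38*, a mitochondrial carrier of glycine for the first step of haem synthesis, lay between 1.87 FPKM (5C VEH) and 9.21 FPKM (4638 DEX). These 4 genes spanned at most 3.31-fold between the highest and lowest leukemia mean, while the mean of *Alas2* spanned 12.4-fold.

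The factors and the receptor did not share a single pattern. *Klf1* was at 3.09 and 6.43 FPKM in 4638 VEH and DEX and at 4.26 FPKM in 73M VEH, and no other library exceeded the value of 78A VEH. It stood at 0.365 FPKM in 73M DEX. In 73A, where globin was high, it stood at 0.364 and 0.197 FPKM with 7 counts in each library, below 78A (0.921 and 0.706 FPKM), where globin was low. *Gata1* was highest in 4638 DEX (2.99 FPKM) and 73M VEH (2.51 FPKM) but was also above 1 FPKM in both libraries of 2M (1.32 and 1.11), 78A (1.41 and 1.42) and JW81 (1.73 and 1.48), where the globin sum was at most 27.1 FPKM. *Gata1* likewise was low in 73A, at 0.457 and 0.247 FPKM.

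*Epor* was highest in JW81, with 8.56 FPKM in the VEH and 10.9 FPKM in the DEX library. It stood at 1.83 and 3.46 FPKM in 4638, at 1.36 and 0.156 FPKM in 73M, and at no more than 0.633 FPKM in the other 14 libraries. JW81 was not high in globin, with a globin sum of 3.83 and 9.89 FPKM in its libraries, and *Klf1* there was 0.357 and 0.693 FPKM. *Epor* averaged 1 FPKM or more only through JW81, so that its call between leukemias is given only within the count above.

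*Nfe2*, a subunit of the erythroid and megakaryocytic factor NF-E2, was at 13.5 and 11.5 FPKM in 4638 and between 1.00 and 4.66 FPKM in the other 18 libraries, so that 73M VEH (3.47 FPKM) did not join 4638 for this gene. It differed between leukemias with an adjusted p of 1.15e-07 (edgeR). *Hemgn*, hemogen, a nuclear protein of blood progenitors, was at 7.25 FPKM in 73M VEH but also at 7.42 and 5.13 FPKM in JW14, at 6.74 and 6.01 FPKM in JW81 and at 4.31 and 6.20 FPKM in 8633, the leukemia with the lowest erythroid score. *Tal2*, a helix-loop-helix factor first known from T-cell leukemia, stayed at or below 0.101 FPKM in every library, and it held 3 counts or more in 11 of 20. *Tal2* was the 1 gene of the 31 that did not differ between leukemias when genes of low level were kept in the edgeR fit, where 30 of 31 passed against 51.1% of all genes.

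**Figure D3:**
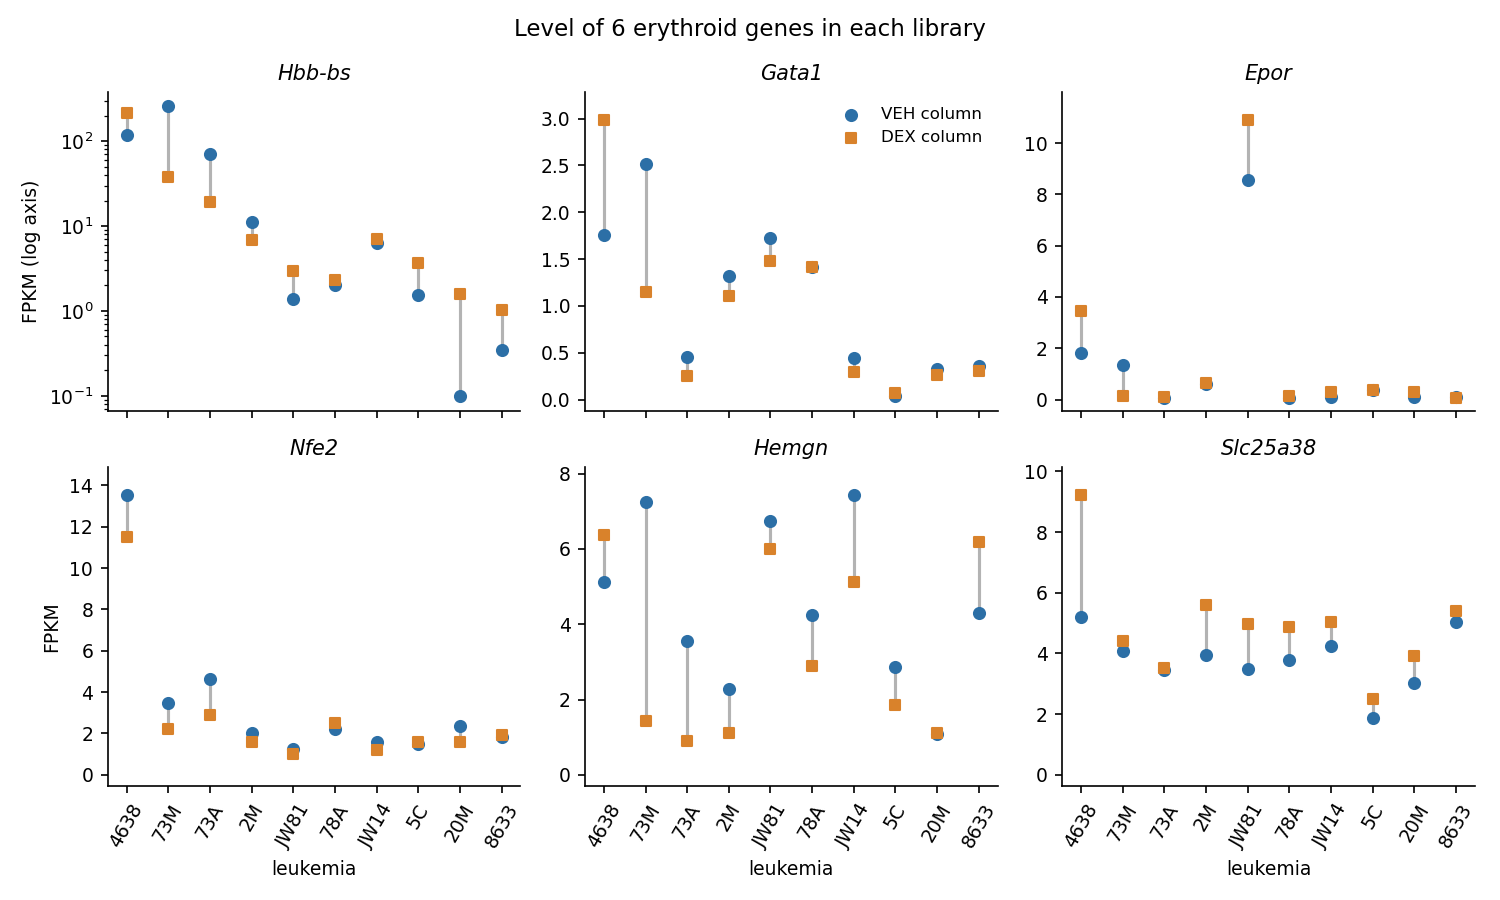
FPKM of *Hbb-bs* (log axis), *Gata1*, *Epor*, *Nfe2*, *Hemgn* and *Slc25a38* (linear axes) in the VEH (circle) and DEX (square) library of each leukemia, ordered by erythroid score. *Epor* is at 8.56 and 10.9 FPKM in JW81 and *Nfe2* at 13.5 and 11.5 FPKM in 4638, while *Slc25a38* is higher in the DEX library of all 10 leukemias.

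Outside 4638, 73M and 73A no membrane or skeleton gene exceeded 0.669 FPKM, the value of *Sptb* in 5C DEX, which rested on 232 counts. *Slc4a1*, band 3, the anion exchanger of the red cell, was at 7.03 and 10.9 FPKM in 4638, at 16.1 and 1.12 FPKM in 73M and at 2.57 and 0.598 FPKM in 73A, and at no more than 0.237 FPKM in the other 14 libraries. *Aqp1*, a water channel, was at 9.20 and 16.4 FPKM in 4638 and at 11.9 and 0.802 FPKM in 73M. *Sptb*, erythroid beta-spectrin, was at 2.78 and 4.06 FPKM in 4638 and at 4.73 and 0.449 FPKM in 73M, and both libraries of 5C (0.634 and 0.669 FPKM) were above 73M DEX. The 3 genes held one order: 4638 and 73M VEH first, then 73A VEH.

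*Ermap*, a membrane protein of the immunoglobulin family, was highest in 4638 DEX (9.59 FPKM), with 4.00 FPKM in 4638 VEH, 4.28 and 0.129 FPKM in 73M and 0.465 and 0.0731 FPKM in 73A. *Rhd* and *Rhag*, the Rh protein and its partner, reached 4.75 FPKM (73M VEH) and 7.18 FPKM (4638 DEX) from medians of 0.130 and 0.0906 FPKM over the libraries. *Kel*, the Kell antigen, reached 5.08 FPKM in 73M VEH and was at 0 in 5 libraries. *Ank1*, *Epb42* and *Tmod1*, which encode ankyrin, protein 4.2 and tropomodulin of the membrane skeleton, had maxima of 2.62, 1.37 and 1.02 FPKM. All 10 genes of this group had 4638 and 73M as their leading leukemias by the mean of both libraries, and each was higher in 73M VEH than in 73M DEX.

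*Car1* and *Car2*, the carbonic anhydrases of the red cell, were the highest erythroid genes after the globins among those that followed the pattern. *Car1* was at 25.4 and 36.8 FPKM in 4638, at 24.4 and 1.69 FPKM in 73M and at 2.99 and 0.620 FPKM in 73A. *Car2* was at 19.1 and 34.3 FPKM in 4638, at 28.4 and 1.38 FPKM in 73M and at 3.02 and 1.03 FPKM in 73A. *Car1* was also at 2.04 FPKM in 20M DEX and 1.86 FPKM in 78A DEX, so that the DEX library of 73M lay within the range of leukemias of low score. *Trim10* and *Trim58*, ubiquitin ligases of late red cell maturation, were at 1.80 FPKM or less, and *Trim58* was at 0 in 8 libraries.

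*Bnip3l*, which is needed to remove mitochondria from maturing red cells and is active in many other cells, lay between 21.1 FPKM (8633 VEH) and 45.0 FPKM (20M DEX). Its order of leukemias had 20M first and 2M second, and 4638, with 23.9 and 31.5 FPKM, stood among the rest. It was the third highest of the 31 genes by mean level, at 30.8 FPKM over the libraries.

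73M VEH, by far the deepest library, lay above both libraries of 4638 for 11 of the 31 genes, below both for 6 and between them for 14. *Hba-a1*, *Hbb-bs*, *Slc4a1*, *Sptb* and *Kel* were among the genes above. *Nfe2*, *Epor*, *Slc25a37*, *Slc25a38*, *Urod* and *Car1* were the 6 below.

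The erythroid score of the DEX column minus that of the VEH column was -0.12 ± 0.59 on average (SD, n = 10), lower in 3 leukemias and higher in 7. It was -1.60 in 73M, -0.58 in 73A and -0.03 in 2M. In the other 7 leukemias it ran from 0.01 (JW14) to 0.54 (4638). Without 73M the mean turned to 0.05. The erythroid transcripts thus moved strongly in single leukemias and not in a shared direction.

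In 73M, 29 of 31 erythroid genes were lower in the DEX library, against 60.4% of all genes tested. On the log2(FPKM + 1) scale, 19 of the 31 were lower by more than 1. Of these, 11 were among the 17 genes that averaged 1 FPKM or more, a filter that several passed only through 4638 and 73M, so that the count is a description, and 2.76% of all genes past that filter were lower by as much. VEH levels divided by DEX levels were 6.70 for *Hbb-bs*, 7.52 for *Alas2*, 14.4 for *Slc4a1*, 14.5 for *Car1*, 20.5 for *Car2* and 33.2 for *Ermap*. *Urod* and *Slc25a38* were not lower, at 11.7 and 12.5 FPKM and at 4.08 and 4.40 FPKM. The libraries of 73M differed in depth, with 201222288 and 16134301 counts, and in ribosomal RNA genes, at 0.0050 and 61.0 CPM, and the part of either in the result was not tested. Counts behind the DEX values were 476 for *Hbb-bs*, 88 for *Slc4a1* and 11 for *Ermap*.

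In 73A, 25 of 31 erythroid genes were lower in the DEX library, against 56.2% of all genes, and 7 of 31, all 7 among the 17, were lower by more than 1 (0.779% of all genes past the filter). VEH levels divided by DEX levels were 3.69 for *Hbb-bs*, 7.57 for *Hbb-bt*, 4.30 for *Slc4a1* and 2.93 for *Car2*. *Fech*, *Bnip3l* and *Slc25a38* were near 1, at 0.945, 0.916 and 0.982. In 4638 the direction was the opposite: 28 of 31 genes were higher in the DEX library, against 46.3% of all genes, with a median difference of 0.53 against -0.02 over all genes. There, 2 of 31 were higher by more than 1, of which 1 was among the 17 (1.18% of all genes past the filter), and DEX levels divided by VEH levels were 1.85 for *Hbb-bs*, 2.40 for *Ermap* and 1.89 for *Epor*. For both 73A and 4638 the DEX column was assigned by the leukemia's name alone.

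The remaining leukemias showed small median differences. In JW81, 25 of 31 genes were higher in the DEX library (39.6% of all genes), with a median difference of 0.10, and in 20M 22 of 31 (43.3% of all genes), with a median of 0.04. For 2M, 78A, 5C, 8633 and JW14 the median difference lay between 0.01 and 0.03. The globin score, DEX minus VEH, ran in these 7 leukemias from -0.25 (2M) through -0.06 (JW14) and 0.08 (78A) to 0.81 (JW81). *Hbb-bs* was at 1.38 and 2.96 FPKM in JW81 VEH and DEX, on 27 and 47 counts, at 2.01 and 2.29 FPKM in 78A, on 61 and 55 counts, and at 6.26 and 7.06 FPKM in JW14, on 182 and 45 counts. It was at 0.0988 and 1.58 FPKM in 20M, on 3 and 26 counts, and at 1.54 and 3.65 FPKM in 5C, on 13 and 80 counts. In 2M it was lower in DEX, at 11.1 and 6.92 FPKM. In 20M and in JW81, 1 of the 17 genes averaging 1 FPKM or more was higher in DEX by more than 1 (1.9% and 1.91% of all genes).

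**Figure D4:**
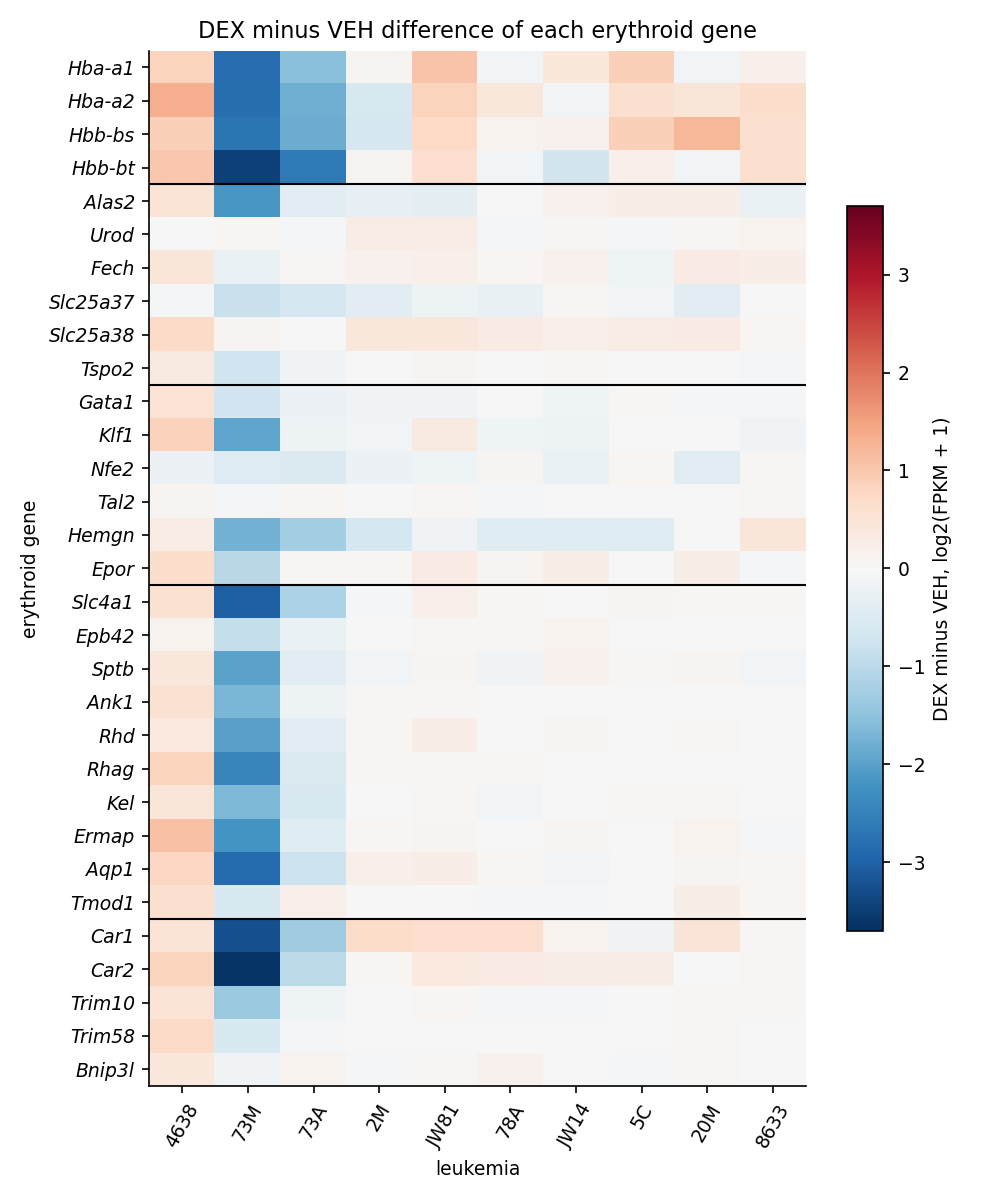
Difference of log2(FPKM + 1) between the DEX and VEH library of each leukemia (columns, ordered by erythroid score) for each of the 31 genes (rows, in role groups parted by black lines), red where DEX is higher and blue where it is lower. The 73M column is blue for 29 of 31 genes, down to -3.62 for *Car2*, and the 4638 column is red for 28 of 31.

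Over all 10 leukemias, edgeR's quasi-likelihood test with leukemia as a block called 1 of the 17 erythroid genes between DEX and VEH columns at an adjusted p under 0.05, against 12.4% of the 11560 genes tested. The gene was *Slc25a38*, higher in DEX by 0.39 on the log2 scale (SE 0.080, adjusted p = 0.00966) and higher in 10 of 10 leukemias. Its lowest, median and highest levels were 1.87, 3.87 and 5.21 FPKM over the VEH libraries and 2.49, 4.93 and 9.21 FPKM over the DEX libraries, so that the ranges overlapped and the shift was within each leukemia. The median log2 difference of the 17 genes was -0.18, and that of all genes tested was 0.00. The sign of the median over the erythroid genes tested was not stable: it was 0.12 with DESeq2, 0.24 without 73M and 0.0049 with a term for libraries with ribosomal RNA counts. Without 73A it was 0.07, over the 21 erythroid genes that then passed the filter.

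Without the blocking by leukemia, and in a fit restricted to the 7 leukemias whose column names matched their labels, *Slc25a38* did not pass (adjusted p = 0.969 and 0.0707), with log2 differences of 0.41 and 0.34. Of all genes tested, 0.0173% and 1.52% passed in these fits. With genes of low level kept in the fit, 2 of 31 passed, *Slc25a38* and *Slc25a37*, against 5.49% of 28872 genes. DESeq2 called the same pair among the 17, against 17.8% of all genes. *Slc25a37* was lower in DEX by 0.25 on the log2 scale in the blocked fit (adjusted p = 0.067) and lower in 8 of 10 leukemias. The 2 mitochondrial carriers of haem synthesis thus had opposite signs.

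An unadjusted p under 0.05 was reached by 6 of the 17 genes, against 30.0% of all genes: *Slc25a38*, *Slc25a37*, *Fech* (log2 difference 0.24, adjusted p = 0.0878), *Nfe2* (-0.25, adjusted p = 0.122), *Urod* (0.12, adjusted p = 0.157) and *Hemgn* (-0.55, adjusted p = 0.162), all by edgeR. *Fech* passed when 5C or 73M was left out, with adjusted p-values of 0.0432 and 0.0443. The adjusted p-values of the 4 globin genes lay between 0.462 and 0.831. For *Hbb-bs* the log2 difference was -0.18 with an SE of 0.46, and for *Slc4a1* -0.51 with an SE of 0.60, and the single leukemias 73M and 4638 moved in opposite directions for both.

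Of 30 further genes of the lineage, listed beside the 31, 14 averaged 1 FPKM or more. The highest were *Prdx2* (41.4 FPKM), a peroxidase abundant in red cells, *Tfrc* (39.6 FPKM), the transferrin receptor of all dividing cells, *Alad* (13.8 FPKM), the second enzyme of haem synthesis, and *Epb41* (11.2 FPKM), protein 4.1 of the membrane skeleton. None of these 4 had 4638 and 73M as its leading leukemias. Of all 30, 12 did (1 without 73M VEH), but among the 14 it was *Cpox* alone, named here after its values were seen, and the other 11 were genes of low level. The share over all genes averaging 1 FPKM or more was 2.54% (2.48% without 73M VEH), so that 1 of 14 says little about the list. Between DEX and VEH columns, 3 of the 14 passed, against 12.4% of all genes: *Epb41* was higher in DEX by 0.37 (adjusted p = 0.00494), *Bpgm*, the enzyme that makes 2,3-bisphosphoglycerate, was higher by 0.51 (adjusted p = 0.0142), and *Slc11a2*, an iron transporter, was lower by 0.49 (adjusted p = 0.0287), all on the log2 scale by edgeR. In the fit with a term for libraries with ribosomal RNA counts, *Bpgm* and *Slc11a2* did not pass (adjusted p = 0.0548 and 0.097). None of the 3 passed without the block (adjusted p = 0.745 to 0.999) or in the 7 leukemias whose column names matched (adjusted p = 0.0624 to 0.134). Between leukemias 12 of the 14 passed, against 87.5% of all genes.

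Of the markers of other marrow cells, the B-lineage and marrow macrophage lists had the order of leukemias and the DEX minus VEH signs of the erythroid score in 4638, 73M and 73A, and the neutrophil, megakaryocyte and mast cell lists had them in part. The score of 12 neutrophil markers, such as *S100a8* and *Ltf*, was 8.30 and 7.87 in 4638 VEH and DEX, 6.98 and 6.42 in 73A, and 5.95 and 4.75 in 73M. It was at a like level in 20M (5.59 and 5.30), 2M (5.18 and 5.34) and 78A (5.01 and 5.65), and lowest in JW14 (1.40 and 0.98). In JW81 the neutrophil score was lower in DEX by a difference of -1.23, close to the -1.20 of 73M, while the erythroid score was higher by 0.20. The score of 9 B-lineage markers was 1.66 and 2.10 in 4638, 1.57 and 0.58 in 73M, 0.76 and 0.47 in 73A, and at most 0.23 in the other leukemias. The B-lineage markers therefore had the same leading leukemias as the erythroid genes, and were also lower in 73M DEX than in 73M VEH. The score of 10 marrow macrophage markers was 3.24 and 3.32 in 4638, 1.92 and 1.79 in 73M and 1.75 and 1.51 in 73A. Scores of 10 megakaryocyte markers (1.53 and 1.64) and 6 mast cell and basophil markers (3.96 and 3.86) were also highest in 4638. In 73M the macrophage and megakaryocyte scores differed between the libraries by only -0.13 and -0.03, and the mast cell and basophil score by -0.73.

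The score of 12 T-lineage markers, which mark the leukemia and normal T cells alike, was lowest in 4638, at 3.71 and 3.36, against 4.36 to 5.83 in the other 18 libraries. In 73M it was 5.38 in VEH and 5.40 in DEX, so that it was almost level in the leukemia with the largest erythroid difference. Summed levels ranged over the libraries from 21.2 to 8873 FPKM for the neutrophil markers, from 0.545 to 50.1 FPKM for the B-lineage markers and from 269.2 to 1315 FPKM for the T-lineage markers. Between DEX and VEH columns, 2 of 12 neutrophil markers (*Cebpe* and *Ltf*) and 1 of 12 T-lineage markers (*Cd5*) passed, all lower in DEX by edgeR, against 12.4% of all genes, and none passed of the B-lineage, macrophage, megakaryocyte or mast cell markers that were tested. The part of these cells in the erythroid values was not tested.

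**Figure D5:**
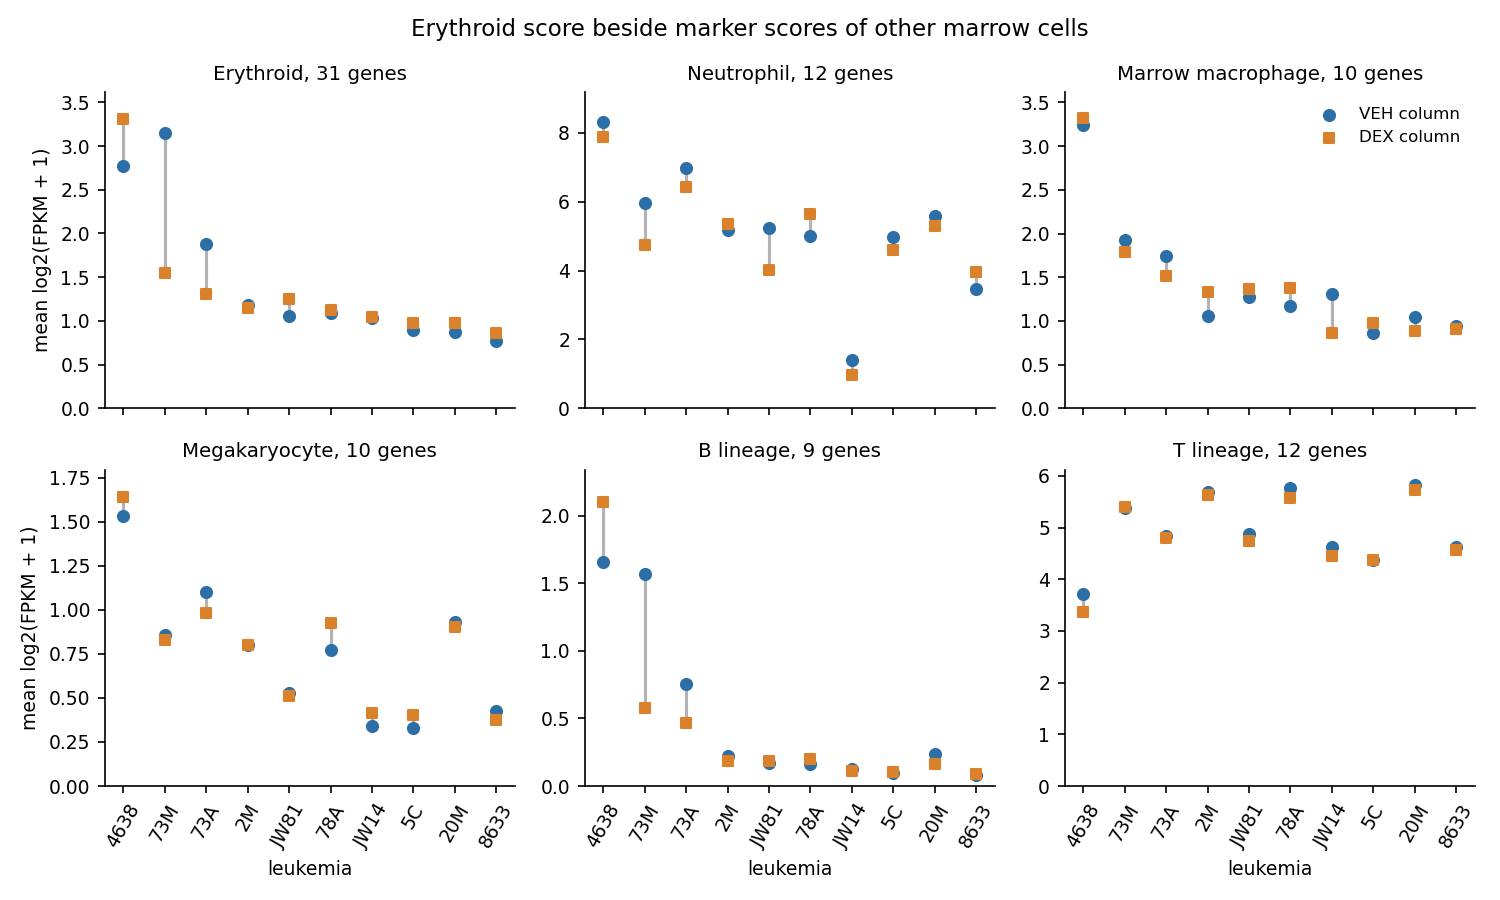
Erythroid score and the scores of 5 lists of markers of other marrow cells (mean log2(FPKM + 1)) in the VEH (circle) and DEX (square) library of each leukemia, ordered by erythroid score. 4638 is highest for the erythroid, neutrophil, macrophage, megakaryocyte and B-lineage lists and lowest for the T-lineage list (3.71 and 3.36).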

How the data were processed

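Poly(A) RNA from whole bone marrow was sequenced as paired 100-base reads, and the authors aligned it with Bowtie 2 to mm10 and quantified it with RSEM; the RSEM version and the annotation are not given in the sources used here. The deposited values are expected counts per Ensembl gene, in 20 columns, all of which were used, 3 of them assigned by the leukemia's name alone. From these counts, FPKM was computed with merged exon lengths of GENCODE M21 and the library total, and scores were means of log2(FPKM + 1). Counts were rounded and tested with edgeR 4.0.16 (quasi-likelihood, TMM, Benjamini-Hochberg, adjusted p under 0.05) over genes averaging 1 FPKM or more, with leukemia as a block for DEX against VEH columns, and with a term for the letters for differences between leukemias; DESeq2 1.42.0 was an alternative. On simulated data with 200 genes changed 4-fold among 11560, edgeR recovered 98.5% of them for DEX against VEH (6.64% false among calls) and 96.5% between leukemias (7.21% false); of DESeq2's calls, 13.9% and 51.5% were false. No test was made on a score, apart from Dixon's test in the results flagged for a closer look. The erythroid genes, the further lists and the markers were chosen with earlier results of these data known; the text names every matched gene of the list, and of the 30 further genes the 4 highest and those past the threshold. Promoters came from RefSeq (GRCm38.p6). Depth ranged from 8226528 to 201222288 counts. The genotype of the mice in which the leukemias arose is not reported here.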

Additional observations from a re-analysis of the deposited data

Results flagged for a closer look

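Dixon's test at the 95% level was applied to 64 sets of 10 values, 1 value per leukemia on the log2(FPKM + 1) scale. The sets were the level and the DEX minus VEH difference of each of the 31 genes and of the score. A chance rate of about 1 in 20 would hold only for independent sets of normally distributed values. These sets share their libraries, and the score is the mean of the 31 genes. Some genes were of low level: *Trim58* had no count in either library of 5C, 8633, JW14 and JW81. The highest or lowest leukemia stood apart in 23 sets, a count that describes the data and cannot be set against chance. Of these, 17 were DEX minus VEH differences that were lowest in 73M: the erythroid score (-1.60), *Alas2* (-2.15), *Tspo2* (-0.74), *Klf1* (-1.95), *Epor* (-1.03), *Slc4a1* (-3.02), *Epb42* (-0.87), *Sptb* (-1.98), *Ank1* (-1.68), *Rhd* (-2.01), *Rhag* (-2.45), *Kel* (-1.65), *Ermap* (-2.23), *Aqp1* (-2.84), *Car1* (-3.24), *Car2* (-3.62) and *Trim10* (-1.37). These values come from the same pair of libraries and are not independent of each other. The difference of *Trim58* stood apart at its highest in 4638 (0.70), where the VEH library held 21 and the DEX library 47 counts.

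Of the levels, *Epor* stood apart at 3.42 in JW81, *Nfe2* at 3.75, *Ermap* at 2.86 and *Trim58* at 0.91 in 4638, all highest, and *Fech* at 1.01 in 2M, lowest. The globin levels did not stand apart by this test, since 73M and 73A lay next to 4638.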

How the results depend on the processing

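The count of erythroid genes called between DEX and VEH columns was 1 of 17, against 12.4% of all genes tested. It was 2 of 31 with no filter on low values (5.49% of all genes) and 2 of 17 with DESeq2 (17.8%). With no replicate block it was 0, where only 0.0173% of all genes passed. It was also 0 without the 3 leukemias whose column names differ from their labels, where 1.52% of all genes passed. That last fit was an alternative chosen after seeing the data. Leaving out each leukemia in turn gave 1 to 2 of the 17 to 22 erythroid genes then past the filter (2 of 21 without 5C and 2 of 17 without 73M). The share over all genes in these fits was 6.17% to 16.3%. Between leukemias, 17 of 17 became 30 of 31 with no filter, against 87.5% and 51.1% of all genes. The score over leukemias was 1.41, and 0.0163 with a pseudocount of 0.1, which lowers every gene near 0; 17 other settings stayed within 1 SD. The mean DEX minus VEH change of the score (-0.12) ran from -0.19 without 4638 to 0.05 without 73M. *Hbb-bs* (log2 difference -0.18) turned to 0.37 with DESeq2, 0.14 without 73A, 0.25 without 73M and 0.20 without the 3 leukemias, with a leave-one-out range of -0.33 to 0.25; *Slc4a1* (-0.51) turned to 0.42 with DESeq2 and 0.24 without 73M, with a range of -0.79 to 0.24; the cause was not tested for DESeq2. *Slc11a2* also missed the threshold when 20M, 2M, 73A, 8633 or JW81 was left out (adjusted p 0.0501 to 0.0696). Depth limits the genes near 0: *Tspo2*, *Trim10* and *Trim58* held 3 counts or more in 9, 8 and 8 of 20 libraries.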
